A study of Mus musculus with 9 samples.

Results

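The 50 genes described here encode the machinery that copies DNA in S phase and part of the machinery that repairs it. They were chosen by name, by their known role, from the subunits of the replication fork and its helpers. The choice was made with earlier results of these data known. Of the 50, 48 had a row among the 25759 genes of the expression table, and Cdt1 and Gins2 were not analysed here. All 48 passed the filter on low values, an average of 0.5 FPKM or more across the 9 libraries, but 6 of them had a naive mean under 0.5 FPKM and passed through the activated groups.

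The 3 groups of 3 RNA sequencing libraries that were compared were all from mouse CD4+ T cells of C57BL/6 background, from animals aged 8 to 12 weeks that carried a Foxp3GFP reporter transgene marking regulatory T cells. The activated knockout group (Activ_BMPR_KO) came from BMPR1a/CD4cre conditional knockout mice, in which the Cre recombinase is driven by the Cd4 promoter and deletes the gene of a bone morphogenetic protein receptor in T cells. The activated WT group (Activ_WT) came from wild-type reporter mice. For both activated groups, mixed lymph node and spleen cells were cultured for 3 days with the T cell mitogen ConA at 2 ug/ml and LPS at 10 ng/ml, and CD4+CD44+CD62L-Foxp3GFP- cells were then sorted. The naive WT group (Naive_WT) was sorted directly from wild-type reporter mice as CD4+CD44-CD62+Foxp3GFP- cells, without culture. Activation, culture and the sort therefore differ together between activated and naive cells and cannot be told apart. The labels do not say whether libraries of a group came from separate mice or cultures, so each p-value measures only the spread between these libraries.

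In a resting cell, replication origins are idle. A cell that enters the cycle loads the MCM helicase onto origins marked by the origin recognition complex, with Cdc6 and Cdt1 as loading factors and geminin as the inhibitor that prevents a repeat in the same cycle. Cdc45, the GINS complex and Mcm10 then turn the helicase on, the primase and DNA polymerases copy the strands, the PCNA clamp tethers the polymerases, and RPA covers the exposed strand. Naive T cells are quiescent and divide rapidly after stimulation, and many replication genes are textbook targets of E2F transcription factors.

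The unit is FPKM, counting fragments per kilobase of transcript scaled to the mapped fragments of the library, so levels may be compared between genes. The read depth behind them is unknown, and between 12922 and 13395 genes per library reached 1 FPKM. Bmpr1a, the targeted gene, was at 0.957, 1.93 and 1.20 FPKM in the activated knockout libraries and at 2.16, 2.92 and 1.40 FPKM in the activated WT libraries, and these groups overlapped (log2 fold change -0.41, limma adjusted p = 0.261). A value over the whole gene includes reads from outside a deleted part, so it does not settle the genotype label. The summed level of 6 T cell marker genes was 1935 to 2132 FPKM in activated knockout, 2126 to 2272 in activated WT and 1883 to 1965 in naive WT libraries, and all 6 were above 1 FPKM in every library. The sum of Cd8a and Cd8b1 was 219.6 to 279 FPKM in activated knockout, 147 to 230.4 in activated WT and 9.48 to 41.4 in naive WT libraries. Naive WT library 2 stood apart from the other naive libraries, with a sum over 6 granulocyte markers of 661 FPKM, against 54.1 and 107, and over 5 B cell markers of 2.79 FPKM, against 51.8 and 167. The B cell marker sum was 115 to 175 FPKM in activated knockout and 125 to 158.5 in activated WT libraries. Over 4 NK cell markers the sum was 159 to 213 FPKM in activated knockout, 164 to 189.7 in activated WT and 22.1 to 33.7 in naive WT libraries. These 4 markers went in different directions. From naive WT to activated WT cells the mean of Klrd1 went from 21.8 to 146 FPKM and that of Klrk1 from 2.40 to 29.4. The mean of Ncr1 went from 0.924 to 0.00684 FPKM and that of Klrb1c from 1.43 to 0.162. Over the granulocyte markers the sum was at most 1.21 FPKM in any activated library, with S100a8, S100a9, Ngp and Camp listed at 0 in some of them. The part of such cells in the results was not tested.

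The 48 replication and repair genes described here were higher in activated WT than in naive WT cells almost throughout. Of the 48 genes, 43 rose and none fell by limma at an adjusted p under 0.05, with 44 higher and 0 lower at an unadjusted p under 0.05, which 29% of all tested genes passed in each direction. The 43 include Cdc6, Mcm10, Chaf1a, Clspn, Fancd2 and Exo1, whose naive means were under 0.5 FPKM. These genes passed the filter through the activated groups, where they are high, so the filter favoured their rise. Among all 15126 genes tested, 52% were called in this comparison, 26.2% higher and 25.8% lower. The median log2 fold change of the 48 was 1.37, where that of all tested genes was -0.009. All fold changes were taken from log2(FPKM + 1), and the added 1 makes those of weakly expressed genes too small. A log2 fold change of at least 1 was reached by 28 of the 48 genes, and 8.76% of all tested genes were called higher with such a change. In 42 genes every activated WT library lay above every naive WT library, which held for 29.6% of all tested genes. Without naive WT library 2, 41 genes were called, all higher, against 48.3% of all tested genes called in either direction. These are bulk measurements, in which a larger share of cells that express a gene and more RNA per cell cannot be told apart.

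The size of the difference varied with the level in naive cells. The 15 genes with a naive mean under 2 FPKM, among them Clspn, Mcm10 and Cdc6, had activated WT to naive WT ratios of mean FPKM between 2.86 and 46.7, with a median of 12.9. The 14 genes with a naive mean of 2 to 10 FPKM had ratios of 1.25 to 6.54, with a median of 2.53. The 19 genes at or above 10 FPKM in naive cells, which include all 6 MCM subunits, Pcna and the RPA genes, had ratios of 0.864 to 4.18, with a median of 1.77. A low naive mean enters such a ratio as its denominator, so the order of these classes is a description. In naive cells 38 of the 48 genes had a mean of at least 1 FPKM, and in both activated groups all 48 did.

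The knockout comparison asked what differs between activated cells that carry the BMPR1a/CD4cre label and activated WT cells. All 48 genes had a higher mean in the knockout, with log2 fold changes between 0.27 and 0.97 and a median of 0.59, where the median of all tested genes was 0.058 and 60.5% of them were above 0. After adjustment over all tested genes 5 were called higher and none lower by limma, namely Fen1, Pold2, Gins4, Rpa1 and Chaf1a. That is 10.4% of the 48, against 4.14% of all tested genes called, 3.3% higher and 0.84% lower. At an unadjusted p under 0.05, 46 were higher and 0 lower, against 18.7% of all tested genes higher and 6.35% lower. The 2 others were Fancd2 and Msh6, whose 95% intervals reached below 0. In 37 genes every knockout library lay above every activated WT library, against 22.8% of all tested genes, and in none the reverse, against 8.36%. An exact permutation test of 3 against 3 libraries cannot go below p = 0.1, so it cannot pass the threshold for any gene. The sums of CD8 markers given above overlapped between these groups and had a higher range in the knockout, and their part in the result was not tested.

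How many genes were called in the knockout depended on single libraries and on the fit, while the direction did not. The count was 11 without activated WT library 1, 0 without library 2 and 2 without library 3. Of all tested genes, these fits called 1.87%, 0.423% and 1.58%. The count was 16 without knockout library 1 and 0 without knockout library 2 or library 3. There the shares of all tested genes were 6.86%, 0.615% and 0.456%. Leaving out naive WT library 1, 2 or 3 gave 2, 5 or 3, with 0.945%, 2.69% and 3.85% of all tested genes called. At an unadjusted p under 0.05, between 36 and 47 genes were higher and 0 lower in these fits. The share of all tested genes at this p was counted in the main fit only, at 18.7% higher and 6.35% lower. With array quality weights, which give less weight to libraries that stand apart, 42 genes were called higher. That fit called 25.5% of all tested genes, against 4.14% in the main fit. Every one of the 48 genes had a log2 fold change above 0 in each alternative in which it was tested, 19 for all but Brca2. Scaling by median-of-ratios size factors left 2 calls and a median of 0.52, and moved the share of higher calls among all called genes to 54.2%, against 79.7% unscaled. With this scaling 2.02% of all tested genes were called.

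**Figure D1:**
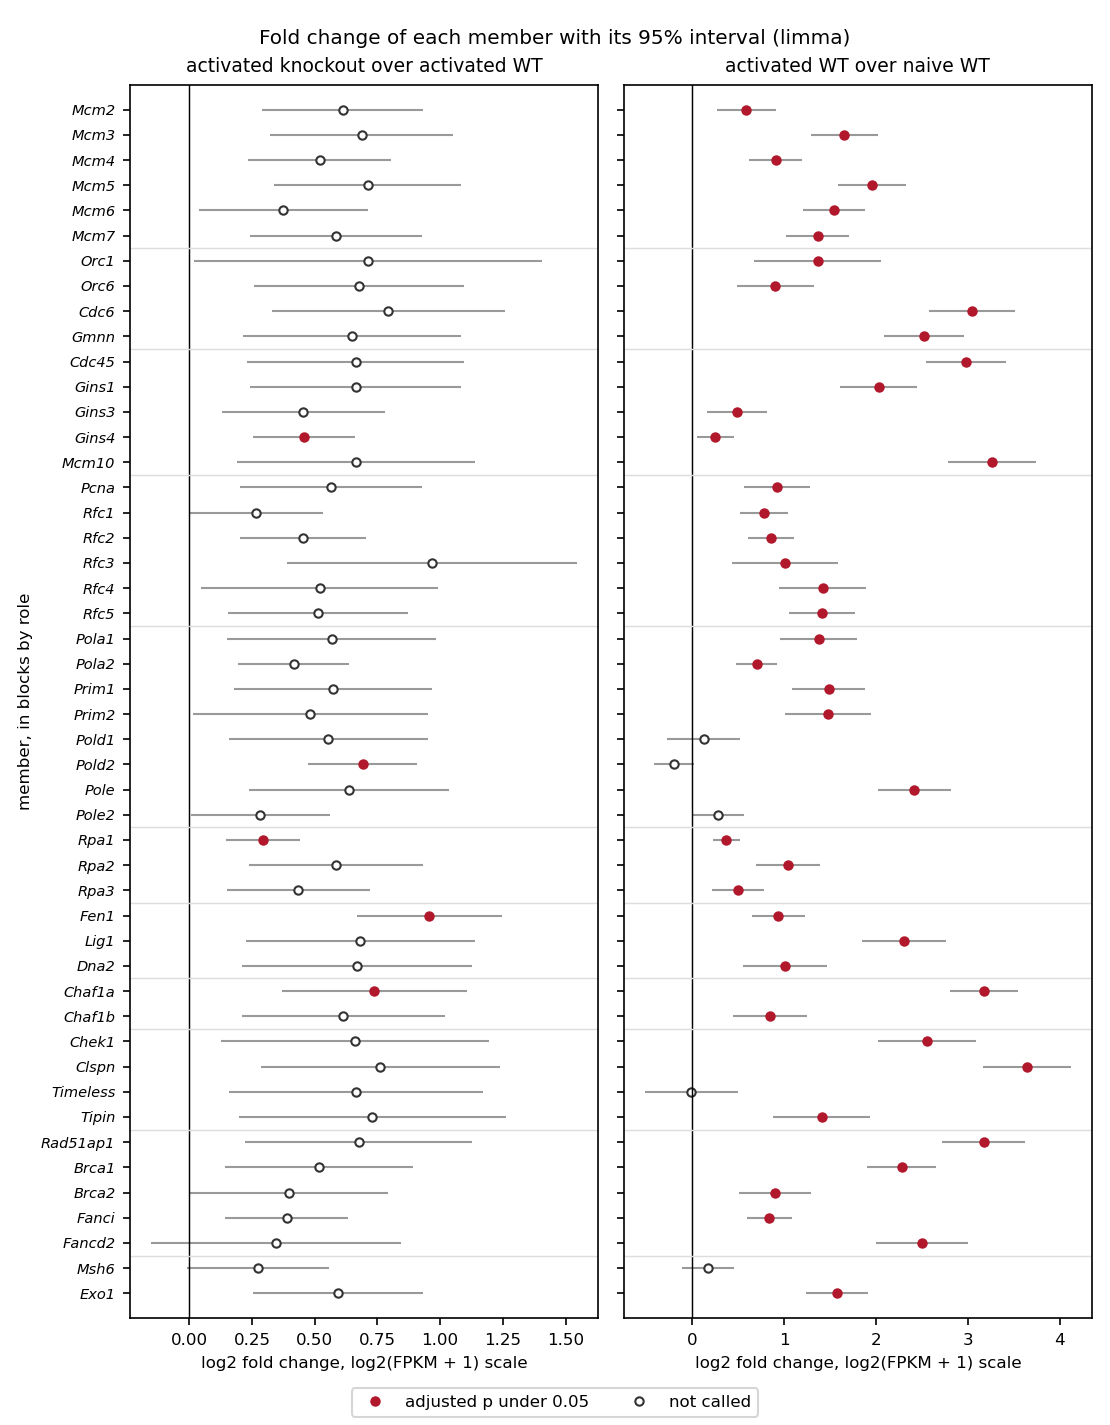
Log2 fold change on the log2(FPKM + 1) scale (x axis) of each of the 48 genes (y axis, in blocks by role), activated knockout over activated WT on the left and activated WT over naive WT on the right. Points are estimates, lines are 95% intervals from limma, and filled points passed an adjusted p under 0.05, which 5 genes did on the left and 43 on the right.

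Activated knockout cells were also set against naive WT cells, where activation and genotype differ at the same time, and this comparison shares its libraries with the other comparisons. All 48 genes were called higher, against 56.9% of all tested genes called, 31.8% higher and 25.1% lower, with a median log2 fold change of 1.93. This includes the 5 genes that did not pass in activated WT cells, Pold1, Pold2, Pole2, Timeless and Msh6. Of these 5, Pold2 alone also passed between activated knockout and activated WT cells.

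Promoter sequences were examined because the genes moved together and many of them are known E2F targets. RefSeq promoters of build GRCm38.p6, each from 250 bases before to 50 bases after a gene's start, were found for 38 of the 48 genes, with 43 promoters in all. An E2F-type motif, written as TTTCCCGC, TTTGGCGC, TTTCGCGC or TTTGCCGC on either strand, was present in 15 of the 43 promoters (34.9%), against 2.26% of all 32851 promoters and 4.0% of the promoters of tested genes. The 15 genes were Mcm3, Mcm5, Mcm6, Mcm7, Orc1, Cdc6, Gins3, Rfc3, Pola1, Pold1, Pole2, Lig1, Clspn, Brca2 and Msh6. A match of letters is a description of the window and shows no binding. For 9 of the 15 genes a match lies wholly before the start, and the 60 bases around it are shown, 5′ to 3′ on the strand of the gene, with the matched letters in capitals.
Mcm5, chr8:75109330-75109389, plus strand: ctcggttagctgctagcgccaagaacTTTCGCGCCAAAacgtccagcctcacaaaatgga
Mcm6, chr1:128359782-128359841, minus strand: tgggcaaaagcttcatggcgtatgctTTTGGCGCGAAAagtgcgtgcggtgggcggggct
Mcm7, chr5:138172015-138172074, minus strand: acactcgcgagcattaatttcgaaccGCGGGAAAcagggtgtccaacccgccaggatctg
Orc1, chr4:108579394-108579453, plus strand: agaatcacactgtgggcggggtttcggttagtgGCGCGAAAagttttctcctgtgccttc
Cdc6, chr11:98907987-98908046, plus strand: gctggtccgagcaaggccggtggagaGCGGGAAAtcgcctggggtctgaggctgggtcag
Gins3, chr8:95633492-95633551, plus strand: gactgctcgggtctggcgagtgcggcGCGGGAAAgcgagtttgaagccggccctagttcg
Rfc3, chr5:151651209-151651268, minus strand: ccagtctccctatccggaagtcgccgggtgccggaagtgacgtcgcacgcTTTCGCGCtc
Pola1, chrX:93632260-93632319, minus strand: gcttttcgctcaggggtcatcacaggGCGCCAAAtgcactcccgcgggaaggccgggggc
Brca2, chr5:150522427-150522486, plus strand: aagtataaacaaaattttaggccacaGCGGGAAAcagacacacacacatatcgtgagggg
In Mcm5 and Mcm6 matches on opposite strands overlap, so their capitals run over 12 bases that hold 2 matches. In the other windows the capitals mark 1 match, which in Mcm7, Cdc6, Gins3, Orc1, Pola1 and Brca2 lies on the strand opposite to the gene.

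Other promoter letters were closer to the background. The CCAAT box, CCAAT on either strand, was in 63.2% of the 38 genes with a promoter, against 43.6% of tested genes. A CHR-type element, TTTGAA or TTCGAA on either strand, known from genes expressed late in the cycle, was in 18.4% of the 38 genes, against 16.7% of tested genes. The GC box GGGCGG was in 63.2% of the 38 genes, against 67.7% of tested genes, and TATAAA was in 13.2%, against 8.32%, again on either strand. The motifs were searched independently, so their letters may overlap. The 15 genes with an E2F-type motif had a median log2 fold change of 1.37 in activated WT over naive WT cells, with a range of 0.12 to 3.65. The 23 genes with a promoter and no such match had a median of 0.94 and a range of -0.20 to 3.26, so the ranges overlap. In activated knockout over activated WT cells the medians were 0.58 and 0.61.

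The MCM helicase, the ring of 6 subunits that unwinds DNA at the fork, rose in all 6 subunits in activated WT over naive WT cells, with a median log2 fold change of 1.45. Mcm5 was at 71.0, 86.4 and 92.8 FPKM in activated knockout, 62.9, 49.4 and 40.8 in activated WT and 11.7, 11.7 and 13.2 in naive WT libraries. Each group of Mcm5 libraries lay apart from the next, and its rise over naive cells was the largest of the 6 (limma log2 fold change 1.96, SE 0.16, adjusted p = 5.78e-05). Mcm2 was at 38.5, 51.6 and 48.8 FPKM in activated knockout, 35.8, 28.1 and 26.2 in activated WT and 20.2, 19.1 and 19.1 in naive WT libraries. Its groups did not overlap either, and its rise was the smallest of the 6 (limma log2 fold change 0.59, SE 0.14, adjusted p = 0.00847). Mcm7 was the subunit with the highest mean in all 3 groups, at 127 ± 17.1 FPKM in activated knockout, 85.3 ± 17.4 in activated WT and 32.0 ± 0.603 in naive WT cells (SD, n = 3 each). The order of means was Mcm7, Mcm6, Mcm3, Mcm5, Mcm4 and Mcm2 in both activated groups and Mcm7, Mcm6, Mcm4, Mcm2, Mcm3 and Mcm5 in naive cells. The highest mean was 2.75 times the lowest in activated knockout, 2.84 times in activated WT and 2.63 times in naive WT cells. Mcm7 and Mcm6, next to each other in these orders, lay apart in naive cells, at 32.0 ± 0.603 and 25.9 ± 0.944 FPKM. Mcm3 at 56.0 ± 11.9 and Mcm5 at 51.0 ± 11.2 FPKM in activated WT cells were close. Mcm3 was the higher in each activated WT library, at 69.0, 53.3 and 45.7 against 62.9, 49.4 and 40.8 FPKM.

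In activated knockout over activated WT cells none of the 6 MCM subunits passed the limma adjustment, all 6 had an unadjusted p under 0.05, and the median log2 fold change was 0.60. Mcm5 had the smallest p among those of the 48 genes that were not called (limma log2 fold change 0.71, SE 0.16, adjusted p = 0.0516), and Mcm2 was next (limma log2 fold change 0.61, SE 0.14, adjusted p = 0.0521). Mcm6 had the smallest difference of the subunits (log2 fold change 0.37, limma adjusted p = 0.162), and its activated WT library 1, at 95.3 FPKM, lay above knockout library 1, at 86.4 FPKM.

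**Figure D2:**
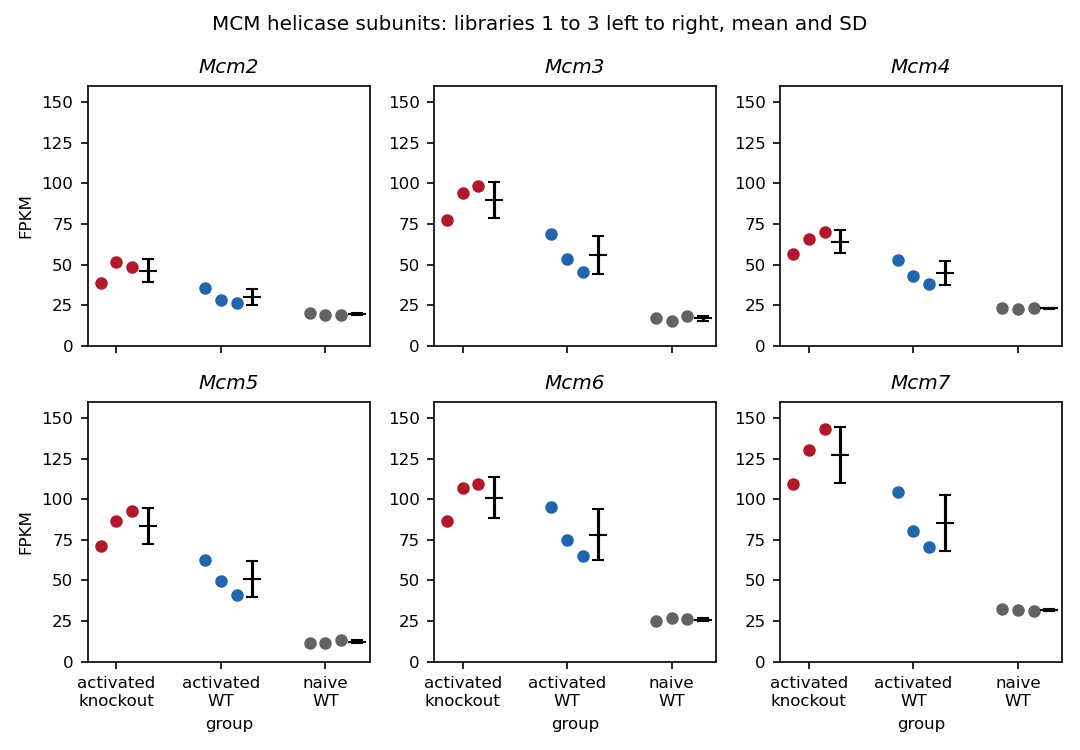
FPKM (y axis) of the 6 MCM subunits in activated knockout, activated WT and naive WT cells (x axis), with points for libraries 1 to 3 from left to right and a dash with error bars for mean and SD. The naive libraries lie between 11.7 and 32.7 FPKM, the activated libraries of both genotypes between 26.2 and 143 FPKM.

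Origin recognition and licensing genes rose in activated WT cells in 4 of 4 cases. Cdc6, which loads the helicase onto origins, was at 14.0, 20.5 and 20.8 FPKM in activated knockout, 13.0, 9.94 and 7.78 in activated WT and 0.293, 0.450 and 0.271 in naive WT libraries. It was near 0 in naive cells and well apart from them in both activated groups (limma log2 fold change 3.05, SE 0.20, adjusted p = 2.21e-05 for activated WT over naive WT). Orc6, a subunit of the origin recognition complex, was at 19.7, 27.8 and 24.9 FPKM in activated knockout, 17.9, 15.04 and 11.5 in activated WT and 7.57, 6.29 and 8.23 in naive WT libraries. Its libraries were already at several FPKM in naive cells, and its rise was the smallest of this group (limma log2 fold change 0.91, SE 0.18, adjusted p = 0.00393). Gmnn, which encodes the licensing inhibitor geminin, had the highest mean of the 4 in both activated groups, at 66.4 ± 11.9 FPKM in activated knockout and 42.1 ± 8.86 in activated WT cells, against 6.45 ± 0.911 in naive WT cells. Orc1, the largest subunit of the complex, had 1.56, 0.164 and 0.255 FPKM in the naive libraries, where library 1 stood above the others, and rose in activated WT cells (limma log2 fold change 1.36, adjusted p = 0.00608). Between activated knockout and activated WT cells the libraries of all 4 genes were apart, the log2 fold changes were 0.65 to 0.79, and limma called none after adjustment, with all 4 at an unadjusted p under 0.05.

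Among the genes that switch the helicase on, 5 of 5 rose in activated WT cells, by very different amounts. Mcm10 was at 16.3, 22.0 and 20.7 FPKM in activated knockout, 16.2, 10.9 and 9.53 in activated WT and 0.142, 0.394 and 0.535 in naive WT libraries. Its naive libraries were all under 1 FPKM and its activated libraries all above 9 FPKM (limma log2 fold change 3.26, SE 0.21, adjusted p = 1.78e-05). Gins4, a subunit of the GINS complex (ENSMUSG00000031546, chr8:23226616-23237659 on the minus strand of GRCm38), was at 30.4, 32.0 and 33.6 FPKM in activated knockout, 24.8, 24.2 and 20.4 in activated WT and 18.5, 18.4 and 20.7 in naive WT libraries. Here activated WT library 3 lay below naive WT library 3, and the rise was small (limma log2 fold change 0.25, SE 0.088, adjusted p = 0.0429) and passed in 7 of 19 alternatives. Over activated WT cells, Gins4 was higher in every knockout library and was called (limma log2 fold change 0.46, SE 0.088, adjusted p = 0.0392), also in 7 of 19 alternatives. The GINS subunits were far from each other in naive cells: Gins1 was at 1.55 ± 0.201 FPKM, Gins3 at 3.64 ± 0.358 and Gins4 at 19.2 ± 1.27. Cdc45, which travels with the helicase, was at 19.1 ± 5.73 FPKM in activated WT cells, against 1.49 ± 0.104 in naive WT cells, and rose with a log2 fold change of 2.98, and Gins1 with 2.03, while Gins3 rose by 0.49 and passed in 16 of 19 alternatives.

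The clamp Pcna had the highest mean of all 48 genes in every group, at 250.1 ± 27.2 FPKM in activated knockout, 170.4 ± 35.4 in activated WT and 88.5 ± 8.41 in naive WT cells. It rose in activated WT cells (limma log2 fold change 0.92, SE 0.16, adjusted p = 0.0018). Pcna has the annotated pseudogenes Pcna-ps1 and Pcna-ps2, and the counting of reads shared with them is not stated in any label. The 5 subunits of replication factor C, which loads the clamp, rose as well. Rfc4 was at 30.0, 33.5 and 39.9 FPKM in activated knockout, 32.1, 22.9 and 17.8 in activated WT and 7.41, 7.87 and 9.39 in naive WT libraries. It had the largest rise of the loader (limma log2 fold change 1.42, SE 0.20, adjusted p = 0.00081), with Rfc5 almost equal (limma log2 fold change 1.41, SE 0.15). Activated WT library 1 of Rfc4 lay above its knockout library 1. Rfc1, the large subunit, was at 30.3, 33.7 and 35.8 FPKM in activated knockout, 31.6, 27.1 and 24.0 in activated WT and 17.3, 14.7 and 14.7 in naive WT libraries. Its rise was the smallest of the loader (limma log2 fold change 0.78, SE 0.11, adjusted p = 0.000896), and it also had the smallest knockout difference of all 48 genes (log2 fold change 0.27, limma adjusted p = 0.199). Rfc3 had the largest knockout difference of the 48 (log2 fold change 0.97, SE 0.25), with 18.8, 31.7 and 34.4 FPKM in the knockout libraries, against 16.4, 13.6 and 11.1 in the activated WT libraries. It did not pass (limma adjusted p = 0.0703), and its knockout library 1 lay far below the other knockout libraries.

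Polymerase and primase genes were mixed, with 5 of 8 higher and 3 not called in activated WT over naive WT cells. Pole, the catalytic subunit of polymerase epsilon, which copies the leading strand, was at 14.9, 17.4 and 20.7 FPKM in activated knockout, 13.8, 10.7 and 8.66 in activated WT and 1.21, 1.08 and 1.40 in naive WT libraries. Its activated libraries lay far above the naive ones (limma log2 fold change 2.42, SE 0.17, adjusted p = 3.02e-05). Pole2, the second subunit of the same enzyme, was at 12.6, 13.3 and 13.5 FPKM in activated knockout, 12.7, 10.3 and 9.11 in activated WT and 8.56, 7.73 and 9.43 in naive WT libraries. Naive library 3 lay above activated WT library 3, and the difference did not pass (limma log2 fold change 0.28, SE 0.12, adjusted p = 0.0809). Pold1, the catalytic subunit of polymerase delta, which copies the lagging strand, was at 34.0, 42.2 and 43.8 FPKM in activated knockout, 34.2, 23.8 and 23.5 in activated WT and 22.2, 22.8 and 28.8 in naive WT libraries. Activated WT library 1 alone lay above the naive libraries, and the groups overlapped (limma log2 fold change 0.12, SE 0.17, adjusted p = 0.57). Pold2, the accessory subunit of polymerase delta (ENSMUSG00000020471, chr11:5872180-5878292 on the minus strand of GRCm38), was at 27.4, 33.3 and 33.6 FPKM in activated knockout, 17.9, 18.6 and 20.5 in activated WT and 21.1, 21.7 and 23.3 in naive WT libraries. It was the only gene of the 48 in which every activated WT library lay below every naive WT library, as 29.8% of all tested genes did, without passing the test (limma log2 fold change -0.20, SE 0.094, adjusted p = 0.106). The 4 genes of the primase complex, Pola1, Pola2, Prim1 and Prim2, all rose, with log2 fold changes of 0.70 for Pola2 to 1.49 for Prim1.

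Pold2 was also among the genes called in the knockout. All 3 knockout libraries, at 27.4 FPKM and above, lay over every activated WT and every naive WT library (limma log2 fold change 0.69, SE 0.094, adjusted p = 0.0182 over activated WT). It passed in 15 of 19 alternatives, with adjusted p between 0.00243 and 0.0847. Unlike most of the 48 genes, its activated WT library 1 was the lowest of its group. The 7 other genes of this role were higher in the knockout by 0.28 to 0.64 on the log2 scale, none passed after the limma adjustment, and all 7 had an unadjusted p under 0.05.

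The 3 RPA genes, which encode the complex that covers unpaired strands, rose in activated WT cells. Rpa2 was at 44.9, 52.1 and 58.5 FPKM in activated knockout, 37.3, 32.9 and 32.0 in activated WT and 17.5, 12.7 and 18.4 in naive WT libraries, with its groups apart (limma log2 fold change 1.04, SE 0.15, adjusted p = 0.000805). Rpa1, the large subunit and the most abundant of the 3 (ENSMUSG00000000751, chr11:75298166-75348324 on the minus strand of GRCm38), was at 129, 124 and 130.0 FPKM in activated knockout, 109, 102 and 102 in activated WT and 85.0, 74.8 and 81.7 in naive WT libraries. All groups of Rpa1 libraries lay apart and its libraries varied little within a group (limma log2 fold change 0.37, SE 0.064, adjusted p = 0.00196 for activated WT over naive WT). Its knockout difference of 1.23 times was small and passed (limma log2 fold change 0.29, SE 0.064, adjusted p = 0.0478), in 4 of 19 alternatives.

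Okazaki fragments, the short pieces of the lagging strand, are trimmed by Fen1 and Dna2 and joined by Lig1, and all 3 genes rose in activated WT cells. Lig1 was at 57.8, 74.3 and 79.9 FPKM in activated knockout, 55.0, 41.3 and 35.6 in activated WT and 8.84, 6.32 and 8.94 in naive WT libraries. It had the largest rise of the 3 (limma log2 fold change 2.31, SE 0.20, adjusted p = 7.08e-05). Fen1 (ENSMUSG00000024742, chr19:10199132-10204169 on the minus strand of GRCm38) was at 16.1, 17.0 and 20.1 FPKM in activated knockout, 9.22, 8.24 and 8.39 in activated WT and 3.78, 4.93 and 3.47 in naive WT libraries. Every group lay apart, and the ratio of the knockout to the activated WT mean was 2.06. Fen1 rose both over naive cells (limma log2 fold change 0.94, SE 0.13, adjusted p = 0.000577 in activated WT) and in the knockout over activated WT (limma log2 fold change 0.96, SE 0.13, adjusted p = 0.0159), where it had the smallest p of the 48 genes and passed in 15 of 19 alternatives. In the GENCODE M21 annotation 84.2% of the exon bases of Fen1 are shared with Tmem258 and Gm10143 on the opposite strand. Without a known strand setting, reads of these genes cannot be told apart. Apart from Chaf1a, other genes of the 48 share at most 16.0% of their exon bases. Tmem258 was at 100.3, 94.9 and 96.8 FPKM in activated knockout, 92.4, 82.3 and 84.0 in activated WT and 68.2, 61.3 and 71.4 in naive WT libraries, with a knockout log2 fold change of 0.17 that did not pass. Gm10143 was at 21.3, 26.0 and 29.1 FPKM in activated knockout, 17.2, 14.4 and 13.1 in activated WT and 5.41, 4.12 and 6.37 in naive WT libraries. Its groups lay apart in the same order as those of Fen1, with a limma log2 fold change of 0.73 in the knockout over activated WT (adjusted p = 0.0535) and of 1.34 in activated WT over naive WT (adjusted p = 0.000422).

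Chaf1a and Chaf1b encode subunits of chromatin assembly factor 1, which places histones on new DNA. Chaf1a (ENSMUSG00000002835, chr17:56040439-56072289 on the plus strand of GRCm38) was at 17.1, 21.8 and 22.8 FPKM in activated knockout, 15.02, 11.1 and 9.88 in activated WT and 0.463, 0.339 and 0.464 in naive WT libraries. Its naive libraries were all under 0.5 FPKM, and those of activated WT cells far above them (limma log2 fold change 3.17, SE 0.16, adjusted p = 7.84e-06), and it passed in the knockout over activated WT (limma log2 fold change 0.74, SE 0.16, adjusted p = 0.0478) in 4 of 19 alternatives. Chaf1b was at 20.6, 23.5 and 24.3 FPKM in activated knockout, 17.8, 14.0 and 12.3 in activated WT and 8.72, 5.81 and 8.74 in naive WT libraries. Its naive level was much higher than that of Chaf1a and its rise smaller (limma log2 fold change 0.84, SE 0.18, adjusted p = 0.0047). In activated cells the levels of the subunits were close, with Chaf1b at 1.11 times Chaf1a in the knockout and 1.22 times in WT, against 18.4 times in naive WT cells. Of the exon bases of Chaf1a, 52.5% are shared with Ubxn6 on the opposite strand, which was at 26.7 to 32.6 FPKM in activated knockout, 28.2 to 36.8 in activated WT and 27.8 to 31.5 in naive WT libraries.

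Genes of the fork checkpoint, which slows replication when forks stall, rose in 3 of 4 cases in activated WT cells. Clspn, which encodes the adaptor claspin that brings Chek1 to stalled forks, was at 21.8, 29.8 and 32.0 FPKM in activated knockout, 21.1, 15.5 and 12.1 in activated WT and 0.418, 0.375 and 0.248 in naive WT libraries. It had the largest log2 fold change of all 48 genes (limma log2 fold change 3.65, SE 0.21, adjusted p = 1.2e-05) and a ratio of means of 46.7. Timeless, part of the fork protection complex, was at 24.1, 27.9 and 32.5 FPKM in activated knockout, 20.7, 17.1 and 14.6 in activated WT and 20.0, 12.3 and 21.5 in naive WT libraries. Its activated WT libraries lay within the naive range, and the estimate was close to 0 (limma log2 fold change -0.0091, SE 0.22, adjusted p = 0.98). Its partner Tipin was at 44.5, 59.7 and 59.4 FPKM in the activated knockout, 39.8, 31.7 and 26.4 in the activated WT and 13.7, 8.08 and 13.7 in the naive WT libraries and did rise in activated WT cells (limma log2 fold change 1.41, SE 0.23, adjusted p = 0.00151). For both partners naive library 2, the one with the high granulocyte markers, was the lowest of the 9 libraries, and the part of other cells in this was not tested. Without naive library 2 the estimate for Timeless was -0.25, the lowest of its 19 alternatives, none of which called it. Without naive library 1 or 3, or without activated WT library 3, the estimate was above 0, at 0.084, 0.13 and 0.11. The kinase Chek1 rose with a log2 fold change of 2.56. In the knockout over activated WT the 4 genes had log2 fold changes of 0.66 to 0.76 with their libraries apart, and none passed after the limma adjustment, with all 4 at an unadjusted p under 0.05.

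Recombination and Fanconi genes act on broken strands and on crosslinks, and 5 of 5 rose in activated WT cells. Rad51ap1, a recombination factor, was at 17.1, 24.5 and 27.9 FPKM in activated knockout, 17.6, 13.0 and 11.6 in activated WT and 0.681, 0.606 and 0.648 in naive WT libraries. Its naive libraries were all under 1 FPKM (limma log2 fold change 3.18, SE 0.20, adjusted p = 1.67e-05). Fanci, which pairs with Fancd2 at crosslinks, was at 6.57, 7.94 and 8.36 FPKM in activated knockout, 6.30, 5.42 and 5.04 in activated WT and 2.69, 2.74 and 2.58 in naive WT libraries. Its groups lay apart with the smallest rise of the 5 (limma log2 fold change 0.84, SE 0.11, adjusted p = 0.000428). Fancd2 was far below Fanci in naive cells, at 0.414 ± 0.117 against 2.67 ± 0.0785 FPKM, and above it in activated WT cells, at 7.23 ± 2.43 against 5.58 ± 0.645 FPKM. Library by library, Fancd2 was at 9.90, 6.64 and 5.15 FPKM there, against 6.30, 5.42 and 5.04 for Fanci, so the values nearly met in library 3. Brca1 rose with a log2 fold change of 2.28 and Brca2, whose activated WT mean was only 1.98 ± 0.689 FPKM, with 0.90. This role had the smallest knockout differences, with a median log2 fold change of 0.40, no gene past the limma adjustment, 4 of 5 at an unadjusted p under 0.05, and overlapping groups in 4 of 5.

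Of the mismatch repair genes, Exo1, an exonuclease also used in recombination, was at 3.67, 4.69 and 4.52 FPKM in activated knockout, 3.20, 2.51 and 1.90 in activated WT and 0.124, 0.187 and 0.206 in naive WT libraries. It was barely read in naive cells and rose (limma log2 fold change 1.58, SE 0.15, adjusted p = 9.97e-05). Msh6, part of the complex that recognises mismatches, was at 23.4, 25.5 and 24.95 FPKM in activated knockout, 23.0, 21.1 and 16.9 in activated WT and 16.8, 20.5 and 16.6 in naive WT libraries. Its naive and activated WT libraries overlapped, and it did not pass (limma log2 fold change 0.17, SE 0.12, adjusted p = 0.287). In the knockout both genes lay above every activated WT library without passing, at log2 fold changes of 0.59 for Exo1 and 0.27 for Msh6 (limma adjusted p = 0.0631 and 0.216).

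**Figure D3:**
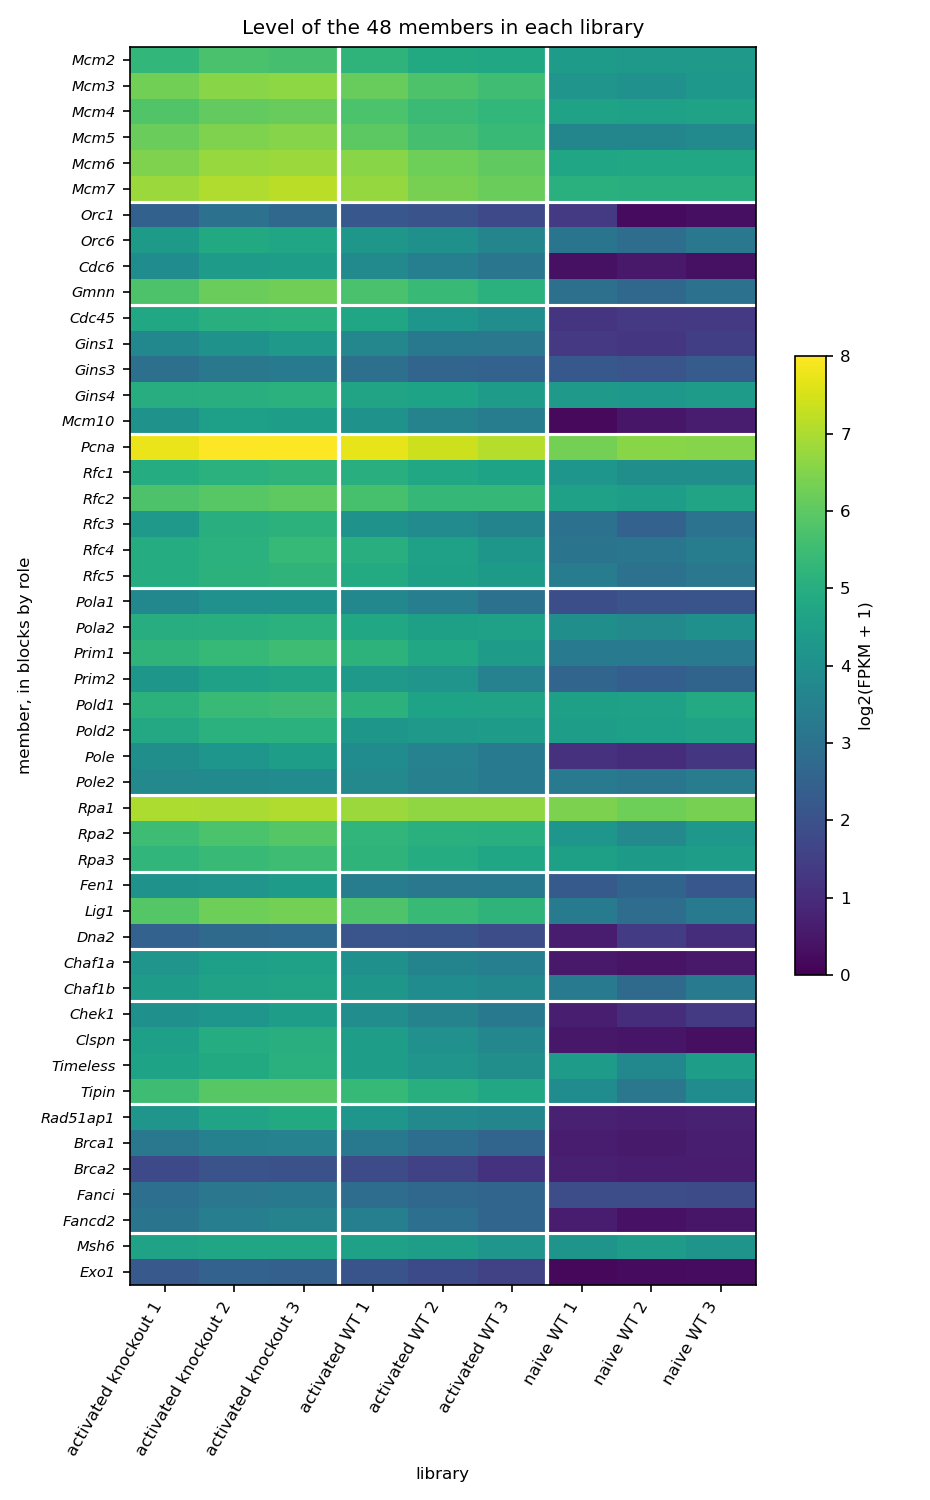
Level of the 48 genes (rows, in blocks by role) in each of the 9 libraries (columns: activated knockout, activated WT and naive WT, 3 each), as log2(FPKM + 1) on a colour scale of 0 to 8. Most rows are darkest in the 3 naive columns, and rows such as Pold2, Timeless and Msh6 differ little across the WT columns.

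Within each activated group the 48 genes moved together from library to library. In activated WT cells library 1 was the highest of its group for 47 of the 48 genes and library 3 the lowest for 45, where library 1 was the highest for 33.7% and library 3 the lowest for 34.2% of all tested genes. In the knockout, library 1 was the lowest for 47 genes and library 3 the highest for 40, against 38.4% and 33.0% of all tested genes. The sum of FPKM over the 48 genes was 1691, 2022 and 2135 in the knockout libraries, a mean of 1949 ± 230.4, and 1578, 1269 and 1107 in the activated WT libraries, a mean of 1318 ± 239 (SD, n = 3 each). The naive libraries, at 603, 570.3 and 629.9 with a mean of 601 ± 29.8, lay far below both. The lowest knockout sum and the highest activated WT sum, 1691 and 1578 FPKM, differed by less than the SD of either group. Knockout libraries 2 and 3 lay above every activated WT library for 47 genes, and knockout library 1 did so for 37. Because the genes share this spread, they are not independent of each other, and the count of 48 higher means is not a count of 48 separate observations.

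**Figure D4:**
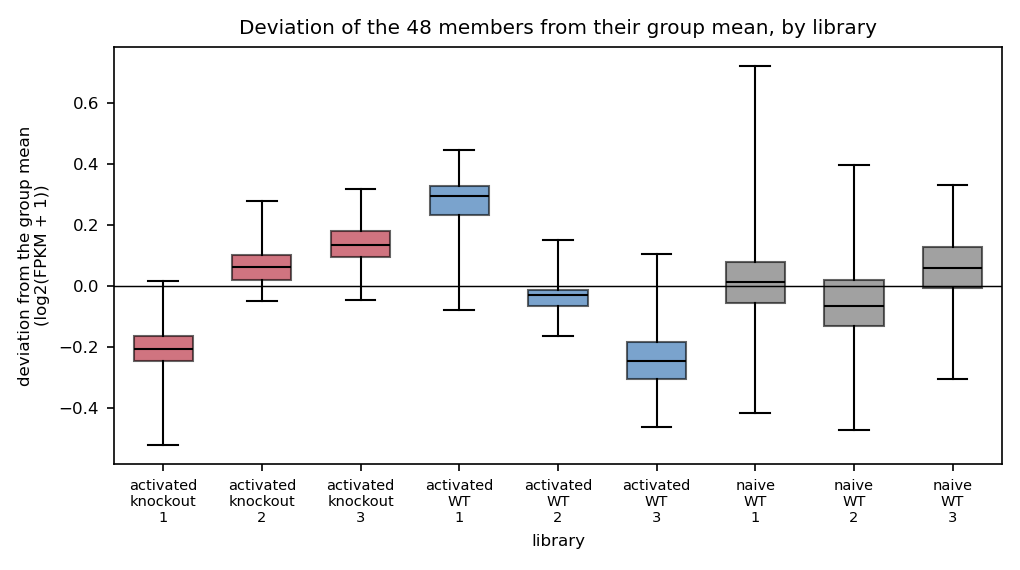
Deviation of each of the 48 genes from its group mean on the log2(FPKM + 1) scale (y axis) in each library (x axis), with boxes for quartiles, lines for medians and whiskers from the lowest to the highest gene. The medians are -0.21, 0.063 and 0.13 in the knockout libraries, 0.29, -0.030 and -0.25 in the activated WT libraries and within 0.065 of 0 in the naive WT libraries.

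Other genes of replication and repair, from 8 lists with 125 genes in the table moved in both directions in activated WT over naive WT cells. Of the 125, 41 rose, 35 fell and 49 did not pass, with a median log2 fold change of 0.022. The share called was 60.8%, against 52% of all tested genes, which split into 26.2% higher and 25.8% lower. Movement in both directions is thus also seen among all tested genes. Further replication genes rose in 11 of 25 cases and fell in 6. Asf1b, a histone chaperone, was at 32.2 ± 8.08 FPKM in activated WT cells, against 3.83 ± 0.227 in naive WT cells (limma log2 fold change 2.76, adjusted p = 1.24e-05), and Pole4, a small subunit of polymerase epsilon, at 36.7 ± 3.10 FPKM in activated WT cells, against 62.0 ± 3.28 in naive WT cells (limma log2 fold change -0.74, adjusted p = 0.000221). The other 5 that fell were Rnaseh2c, Orc4, Asf1a, Mcm9 and Mcmbp. Further recombination and Fanconi genes rose in 14 of 27 cases. The break sensor Nbn was the 1 that fell, and Fancc had the lowest estimate without passing (log2 fold change -0.44).

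In the remaining lists at least as many genes fell as rose, with base excision repair as the exception. The share called was 81.25% for checkpoint, 72.7% for translesion and 71.4% for nucleotide excision repair genes, against 52% of all tested genes. It was under that share for base excision repair (47.1%), end joining (44.4%) and mismatch repair (16.7%). Checkpoint genes outside the 48 fell in 11 of 16 cases and rose in 2, the kinases Wee1, at 5.64 ± 1.03 FPKM in activated WT cells, against 0.553 ± 0.0866 in naive WT cells (limma log2 fold change 2.09, adjusted p = 1.94e-05), and Chek2. The damage mediator Mdc1 fell most, to 7.89 ± 1.05 FPKM in activated WT cells, against 19.6 ± 1.52 in naive WT cells (limma log2 fold change -1.22, adjusted p = 6.27e-05). Nucleotide excision repair genes fell in 7 of 14 cases, with Ercc8 lowest at a log2 fold change of -0.95, and rose in 3, Rad23b, Xpa and Ddb1. Base excision repair genes rose in 5 of 17 cases, with the glycosylase Neil3 at 16.3 ± 4.48 FPKM in activated WT cells, against 0.582 ± 0.0963 in naive WT cells (limma log2 fold change 3.42, adjusted p = 1.77e-05), and fell in 3, Smug1, Polb and Lig3. End joining genes split 2 to 2 of 9, between Dclre1c at 0.43 and Prkdc at -0.83 on the log2 scale, and translesion genes 4 to 4 of 11, between Polk at 0.86 and Rev3l at -1.10. Of 6 mismatch repair genes Mlh3 fell, none rose by limma or at an unadjusted p under 0.05, and Msh3 had the highest estimate (0.12). Between activated knockout and activated WT cells 7 of the 125 were called, all higher, 5.6% against the 4.14% of all tested genes. They include the base excision repair genes Ung, Apex1 and Parp1, named after their values were seen.

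**Figure D5:**
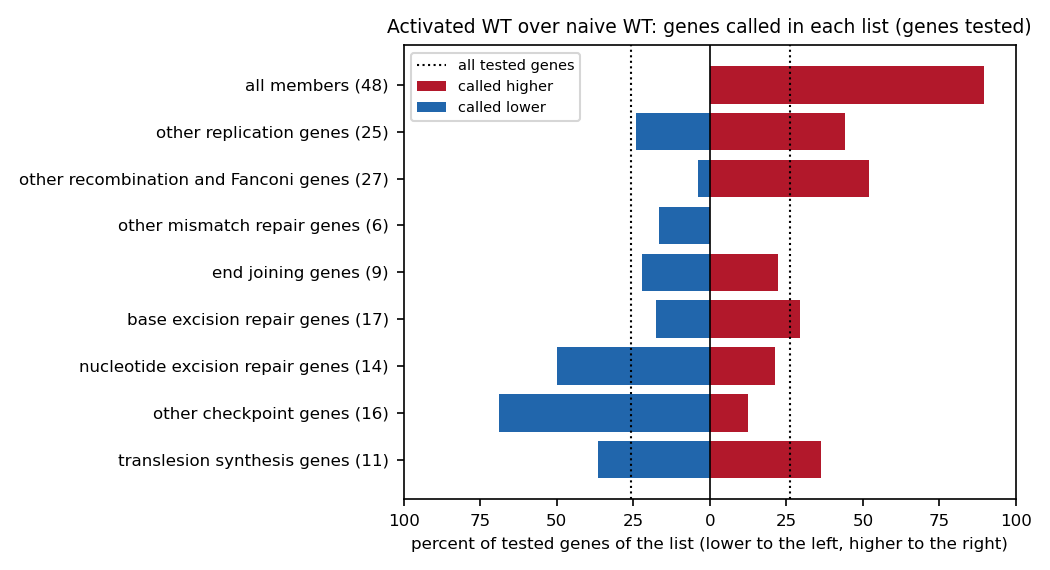
Percent of the tested genes of each list (y axis, number tested in brackets) called higher, to the right, or lower, to the left, in activated WT over naive WT cells. Dotted lines mark all tested genes, at 26.2% higher and 25.8% lower, and the bar of the 48 genes lies wholly on the higher side.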

How the data were processed

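The authors deposited 1 table of FPKM values, with a column for each of the 9 libraries. TopHat2, Cufflinks and Cuffdiff were used on build GRCm38, per the submitters' processing notes. Tool versions, annotation, strandedness and the handling of reads that map more than once were not given in the sources used here, so overlapping genes and near-identical copies are uncertain. Read counts cannot be had from the FPKM values, the depth is unknown, and no counting interval was computed.

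Groups were taken from the sample labels. Identifiers were matched to symbols (24876 of 25759) and positions in GENCODE M21. Genes averaging 0.5 FPKM or more entered limma 3.58.1 (R 4.3.3) as log2(FPKM + 1), with its two-sided moderated test with trend, in 1 fit of all 9 libraries, adjusted by Benjamini-Hochberg over 15126 genes and called at an adjusted p under 0.05. The script was tested on simulated data. The members, the lists of other pathway genes, the markers and the tests were chosen with earlier results of these data known.

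Values in every library are given for the gene with the largest and the smallest activated WT over naive WT fold change of each role, for genes not called there, and for the 6 with the smallest p in the knockout. Of each further list, the genes with the largest and smallest change and those called against its majority are named. Some results that this rule or the markers would give are not reported here. Alternatives changed the pseudocount, the filter, the scaling, the fit and the libraries used. The labels state no pairing of libraries with equal replicate numbers. The correlation of deviations was 0.0027 to 0.054 for equally numbered libraries, all above 0, and -0.068 to 0.038 for differently numbered ones. Correlations this small cannot decide whether the numbers pair the libraries. No pair of libraries was a copy of another. Promoters come from RefSeq (GRCm38.p6).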

Additional observations from a re-analysis of the deposited data

How the results depend on the processing

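The number of genes called in activated knockout over activated WT cells, 5, moved most. It was 2 with no filter, 9 with a filter at a mean of 2 FPKM, 3 with a pseudocount of 0.1, 2 with median-of-ratios scaling, 2 with quantile normalization, 42 with array quality weights, 3 without the intensity trend and 1 when the 6 libraries were fitted alone. The main fit called 4.14% of all tested genes. That share was 1.67% with no filter, 5.29% with the 2 FPKM filter and 3.8% with the pseudocount of 0.1. It was 2.02% with median-of-ratios scaling, 2.14% with quantile normalization and 25.5% with array quality weights. Without the intensity trend it was 2.9%, and with the 6 libraries alone 0.608%. Leaving out 1 library gave 0 to 16 calls among the 48 genes, against 0.423% to 6.86% of all tested genes. All calls among the 48 genes were higher under these alternatives. Some alternatives hold fewer samples or genes, and the cause of the changing count was not tested. With the replicate number as a block the count was 1, against 5 without it. In this block fit 42 genes were called in activated WT over naive WT cells and 48 in activated knockout over naive WT cells. Of all tested genes 49.2% and 54.4% were called there. The labels give these libraries only a shared number, and whether they are paired is not known. Over all tested genes the calls in the knockout were 626, and 58 with the block. In activated WT over naive WT cells the count of 43 stayed between 41 and 46, and between 41 and 44 when 1 library was left out. The share of all tested genes called ran from 34.2% to 66.8%, and from 44.3% to 51.2% when 1 library was left out. Pold2 was called lower there with array quality weights and without activated knockout library 1. In activated knockout over naive WT cells 46 to 48 were called, also when 1 library was left out, against 38.9% to 68.8% of all tested genes. Changes of sign occurred for 2 genes: Timeless in activated WT over naive WT cells was at 0.026 with median-of-ratios scaling, at 0.084 and 0.13 without naive WT library 1 or 3 and at 0.11 without activated WT library 3, and Pold1 was at -0.046 without activated WT library 1. Over all fits with 1 library left out, Timeless lay between -0.25 and 0.13 and Pold1 between -0.046 and 0.24. With 3 libraries a group and unknown read depth, the counting error of low genes such as Brca2 and Exo1 cannot be given. In activated WT over naive WT cells Brca2 was called in 18 of 18 alternatives and Exo1 in 19 of 19. In activated knockout over activated WT cells they were called in 0 of 18 and 1 of 19.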
